A study of Mus musculus with 3 samples.

Results

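Thalamic and habenular neurons are the main forebrain neurons outside the cortex that express Slc17a6, and 10 genes known from them were followed in RNA that tagged ribosomes carried in the prefrontal cortex. The genes were chosen by name, as Tcf7l2, Lef1, Prkcd, Gbx2, Plekhg1, Zfhx3, Amotl1, Synpo2, Pou4f1 and Lhx9, and all 10 were among the 32531 gene symbols of the count tables. The mice were adult and untreated and belonged to the transgenic line JX883 (Slc17a6-EGFP/Rpl10a). In this line control sequences of Slc17a6, the gene of the vesicular glutamate transporter VGLUT2, drive an EGFP-tagged ribosomal protein L10a. Polysomes were pulled down with anti-EGFP antibodies, a method called TRAP, and the 3 libraries of immunopurified RNA form 1 group, each library from 3 pooled mice. Strain background and sex are not stated in the labels, and no input or untagged control was analysed here. A level is therefore an abundance in the immunopurified RNA and not an enrichment, and RNA carried along by other means could not be distinguished.

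Relay nuclei of the thalamus send glutamatergic axons to the cortex, and the habenula, which lies beside them, sends its output to the midbrain. Neurons of both structures load their vesicles largely through VGLUT2, whereas cortical projection neurons use mainly VGLUT1, encoded by Slc17a7. The identity of thalamic and habenular neurons is set during development by transcription factors, several of which stay on in the adult.

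Of the 10 genes, 7 reached 1 CPM (the count scaled to a common library total over named genes) in every library, 1 was detected near that level and 2 had no count at all. By comparison, 37.9% of all symbols in the tables and 67% of symbols with a count reached 1 CPM in every library, and 43.5% of symbols had 0 counts. The genes with 0 counts were Gbx2 and Pou4f1, both homeobox transcription factor genes. The angiomotin family gene Amotl1 and the zinc finger homeobox gene Zfhx3 had the highest levels. Tcf7l2 alone among the 8 genes tested was called as varying between the libraries, where 0.244% of all genes tested were called. This call held in only 5 of 10 alternative analyses. In bulk RNA of this kind, fewer cells of a type and less RNA per cell cannot be told apart.

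**Figure D1:**
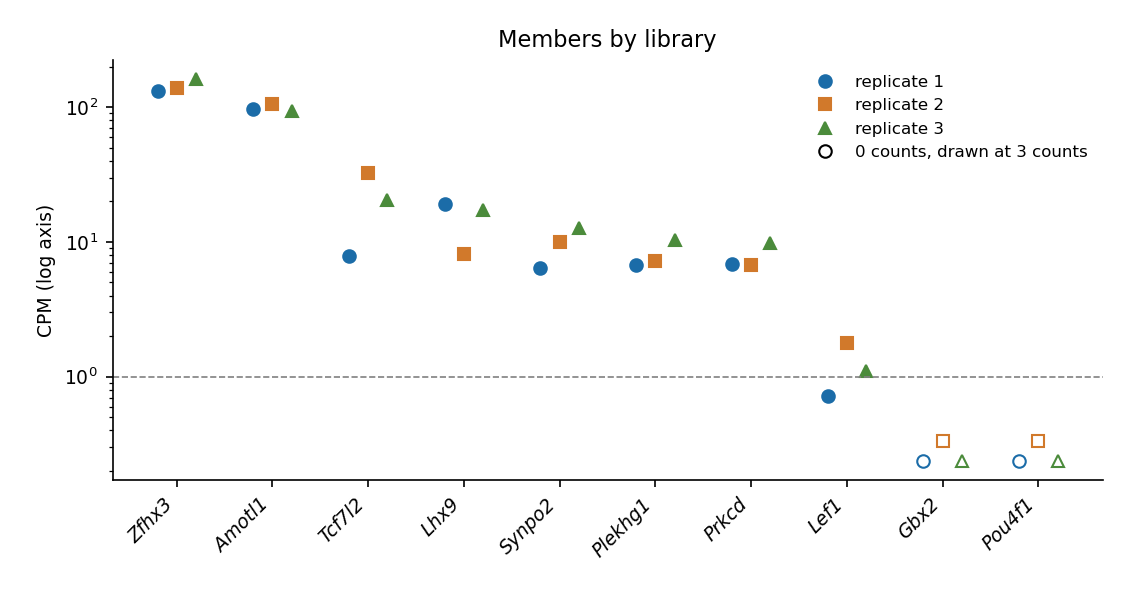
CPM (log axis) of the 10 genes in replicates 1, 2 and 3, ordered by mean; open symbols mark 0 counts and are drawn at the level of 3 counts, and the dashed line is 1 CPM. Zfhx3 and Amotl1 lie above 90 CPM in every library, Lef1 lies around 1 CPM, and Gbx2 and Pou4f1 have no counts.

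Library totals over named genes ran from 8964137 to 12648577 counts, and replicate 2 was the shallowest. Of all counts, 27.8% ± 0.56 (SD, n = 3) lay in lines that name no gene. For the labelled tissue, 10 genes of cortical projection neurons were read, and all 10 reached 1 CPM in every library. Their summed levels were 1090 to 1252 CPM. Slc17a7 was their highest in TPM (a scale which also divides by transcript length) at 285 ± 16.5 TPM. All 7 striatal genes and 13 of 14 other thalamic genes read below also reached 1 CPM in every library. Reaching that level therefore does not verify the dissected region. The libraries are separate samples by the labels, but whether the pools came from separate cohorts is not given, so p-values refer to these 3 samples only. In the main test of variation, each p sets a gene's spread between them against the trend of genes of like abundance. That trend was fitted on the same 3 libraries.

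The upstream windows of 3 members are shown because they span the range from called varying, through detected and not called as varying, to 0 counts, and because each lies just before the annotated gene start and overlaps no annotated exon. Each is the 250 bases before the RefSeq start (GRCm38.p6, the assembly of mm10), 5′ to 3′ on the gene's strand, with every CG dinucleotide in capitals.
Tcf7l2, chr19:55741560-55741809, plus strand: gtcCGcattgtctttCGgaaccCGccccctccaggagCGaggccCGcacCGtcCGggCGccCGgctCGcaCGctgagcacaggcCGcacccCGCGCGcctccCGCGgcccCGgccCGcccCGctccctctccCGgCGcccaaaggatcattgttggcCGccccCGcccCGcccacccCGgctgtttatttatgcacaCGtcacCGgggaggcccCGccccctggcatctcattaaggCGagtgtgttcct
Synpo2, chr3:123236150-123236399, minus strand: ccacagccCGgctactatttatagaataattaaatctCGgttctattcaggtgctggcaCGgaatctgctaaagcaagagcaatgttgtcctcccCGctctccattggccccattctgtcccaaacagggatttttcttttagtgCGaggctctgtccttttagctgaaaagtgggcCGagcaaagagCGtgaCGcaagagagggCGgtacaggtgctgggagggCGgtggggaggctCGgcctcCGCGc
Pou4f1, chr14:104468000-104468249, minus strand: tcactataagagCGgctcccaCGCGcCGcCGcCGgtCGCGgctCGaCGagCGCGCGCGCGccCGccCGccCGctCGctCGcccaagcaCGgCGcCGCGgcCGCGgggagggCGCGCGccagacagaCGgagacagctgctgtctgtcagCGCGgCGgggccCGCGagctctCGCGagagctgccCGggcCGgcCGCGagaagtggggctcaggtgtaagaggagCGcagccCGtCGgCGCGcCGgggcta

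The Pou4f1 window held 47 CG dinucleotides and a GC content of 78%, the Tcf7l2 window 30 and 72.8%, and the Synpo2 window 13 and 54.4%. Windows of the same length before the first listed start of 4648 symbols with 0 counts held a median of 2 CG dinucleotides (quartiles 1 and 4), against 16 (quartiles 10 and 23) for 9169 symbols at 1 CPM or more in every library. Pou4f1, with no count, thus had more CG dinucleotides than most windows of either kind: 0.0215% of windows of symbols with 0 counts and 0.513% of those at 1 CPM held at least as many. For Tcf7l2 the same shares were 0.624% and 12.1%. For Synpo2 they were 5.74% and 66.6%.

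The letters CTTTGA, the core of the sequence that TCF/LEF factors bind, were searched on both strands of these windows. They occurred in the first-listed window of 2 members, Prkcd and Zfhx3, and in 13.2% of the windows of all 17066 symbols of the tables with one. Among the members' further start sites, 1 window of Lef1 held 2 matches, and 13.83% of all 32851 windows held at least 1. A match is a run of letters and not a binding site, and its absence says nothing about a factor.

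Tcf7l2 and Lef1 encode HMG-box transcription factors that act with beta-catenin at the end of the canonical Wnt pathway. TCF7L2 maintains the identity of thalamic and medial habenular neurons, and it is also made in the oligodendrocyte lineage. Tcf7l2 (ENSMUSG00000024985.19) lies on mm10 chromosome 19 from 55741820 to 55933654. It had 99, 290 and 260 counts in replicates 1, 2 and 3, equal to 7.86, 32.4 and 20.6 CPM. The 95% Poisson intervals, which cover counting error alone, were 6.39 to 9.57, 28.7 to 36.3 and 18.1 to 23.2 CPM. Replicate 1 was lowest and replicate 2 highest, by 4.11-fold, and the 3 intervals did not overlap.

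The variation of Tcf7l2 passed the test across all genes. In the goodness of fit of an edgeR negative binomial model, which sets a gene's spread against the trend of genes of like abundance, its adjusted p was 0.0429 (unadjusted p = 8.51e-05). Of 14774 genes tested, 36 were called in this way, or 0.244%, and Tcf7l2 was 1 of the 8 members tested. At an unadjusted p of 0.05 the share of all genes was 7.22%, and again 1 of the 8 members was below it. The call was lost without replicate 1 (adjusted p = 0.941 in edgeR) and without replicate 2 (adjusted p = 0.478), while without replicate 3 it held at 0.0143. It was also lost with no count minimum (adjusted p = 0.0592), with a common dispersion (0.0799, where 7.43% of genes were called) and in the limma variance test (0.2504, where 0.0812% were called).

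**Figure D2:**
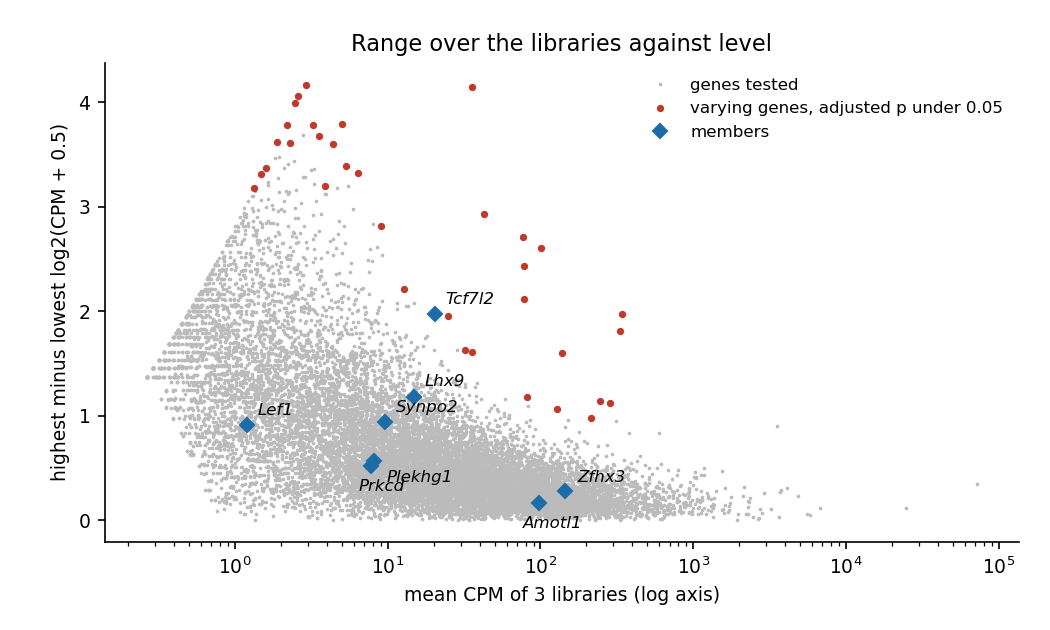
Range over the 3 libraries (highest minus lowest log2(CPM + 0.5)) against mean CPM (log axis) for the 14774 genes tested in grey, the 36 varying genes in red and the 8 tested members as blue diamonds. Tcf7l2 sits at the upper edge of genes of its abundance, and the other members lie within the grey cloud.

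Markers of the oligodendrocyte lineage were read beside Tcf7l2, because that lineage expresses it. Of 9 genes of precursors and committed precursors, 7 reached 1 CPM in every library, and their summed level was 70.4, 86.0 and 79.5 CPM in replicates 1, 2 and 3. The highest of them per length was Sox10, a lineage transcription factor gene, at 26.8 ± 2.15 TPM, followed by Bcas1 at 19.5 ± 5.12 TPM. Of 7 genes of mature oligodendrocytes, 6 did so, with a summed level of 427, 573 and 588 CPM. Cnp, a gene of myelin-forming cells, led that list at 157 ± 17.8 TPM.

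Both sums were lowest in replicate 1, as Tcf7l2 was, over a narrower span, but single genes differed. Pdgfra, Gpr17, Sox10 and Tns3 of the precursor list were lowest in replicate 1, as was each mature gene except Mog. Cspg4, Enpp6, Neu4 and Bcas1 were lowest in replicate 3, and Bmp4 and Mog in replicate 2. No gene of either list had 0 counts in all libraries. In edgeR 0 of 8 tested precursor genes and 0 of 7 mature genes were called, with 1 of each below an unadjusted p of 0.05, and limma called 0 of either. The part of this lineage in the level or the variation of Tcf7l2 was not tested.

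**Figure D3:**
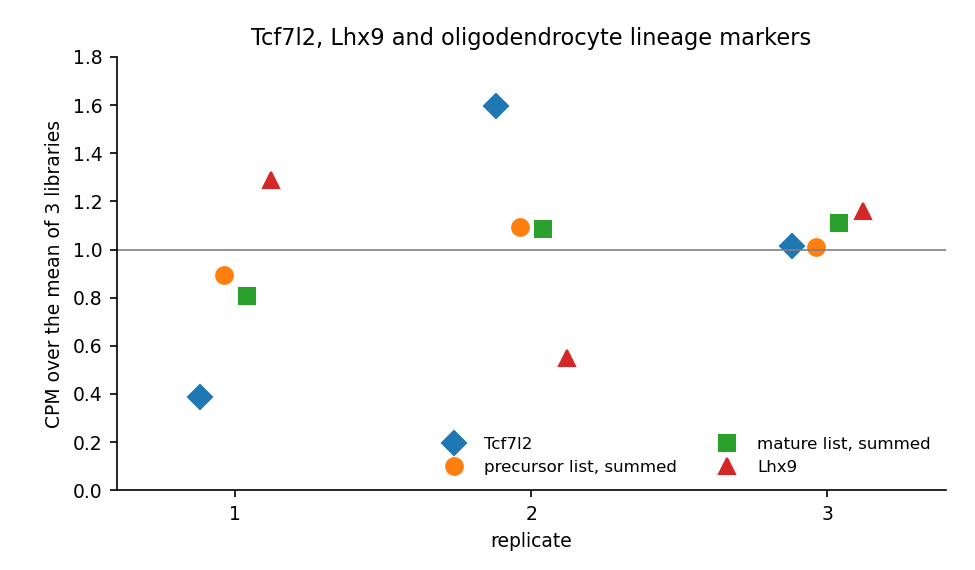
Level in each library relative to the mean of the 3 libraries (linear axis) for Tcf7l2, Lhx9 and the summed CPM of the oligodendrocyte precursor and mature oligodendrocyte lists. Tcf7l2 and the sums of both lists are lowest in replicate 1, while Lhx9 is lowest in replicate 2.

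Lef1 (ENSMUSG00000027985.14; chromosome 3, 131110471 to 131224356) was the lowest of the detected members. It had 9, 16 and 14 counts, equal to 0.715, 1.78 and 1.11 CPM. Its Poisson intervals of 0.327 to 1.36, 1.02 to 2.90 and 0.605 to 1.86 CPM overlapped, and edgeR did not call it as varying (adjusted p = 0.99999, unadjusted p = 0.740). Of its exonic bases, 13.8% were shared with the antisense gene Gm43352, and the labels do not say whether counting used strand. Within each library Tcf7l2 exceeded Lef1 per length, by 11.02-fold, 18.2-fold and 18.6-fold in TPM.

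The other TCF/LEF genes and their partners were read from a list of 16. Of these, 13 reached 1 CPM in every library. The median over all 16 was 12.2 TPM, against 13.3 TPM over all symbols with a count and a length. Ctnnb1, the beta-catenin gene, was highest at 333 ± 39.3 TPM, and the Groucho-type corepressor gene Tle4 followed at 160 ± 9.75 TPM. The remaining TCF family genes were low, with Tcf7 at 0.953, 2.57 and 1.11 CPM and Tcf7l1 at 1.19, 1.56 and 3.79 CPM. Axin2, a widely used target gene of the pathway, had 18.4, 22.6 and 17.8 CPM, while Sp5 and Notum, also known targets, had at most 3 counts in any library. In edgeR 0 of 14 tested genes of the list varied, with 1 below an unadjusted p of 0.05, and limma called 0. Tcf7, Tcf7l1, Axin2, Sp5 and Notum were picked from the list after their values were seen.

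Gbx2, Lhx9, Pou4f1 and Zfhx3 carry homeodomains. GBX2 is required for thalamic neurons to form and to send axons to the cortex. Gbx2 (ENSMUSG00000034486.8; chromosome 1, 89927956 to 89931179) had 0 counts in each of the 3 libraries. A level of 3 counts per library, equal to 0.238, 0.335 and 0.237 CPM, was used as the floor for a count of 0. The Poisson intervals of a count of 0 reached higher, to 0.293, 0.412 and 0.292 CPM. Of its exonic bases 43.5% were shared with the antisense gene D130058E05Rik, and whether reads there were counted depends on the unstated strand setting. Its paralog Gbx1 also had 0 counts.

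POU4F1, also known as BRN3A, is a POU-domain factor of medial habenular neurons. Pou4f1 (ENSMUSG00000048349.9; chromosome 14, 104461676 to 104467999) had 0 counts in every library, with the same floors in CPM. None of its exonic bases was shared with another annotated gene, and 0.497% of the runs of 50 bases in its transcripts occurred in another gene's transcripts, all in Pou4f2. Of its paralogs, Pou4f3 had 0 counts, and Pou4f2 had 1 count in replicate 1 and 0 in the other libraries.

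LHX9 is a LIM-homeodomain factor of the developing thalamus and habenula. Lhx9 (ENSMUSG00000019230.14; chromosome 1, 138825186 to 138848577) had 241, 73 and 218 counts in replicates 1, 2 and 3, equal to 19.1, 8.14 and 17.2 CPM. Replicate 2 was lowest, by 2.35-fold against replicate 1, and its Poisson interval of 6.38 to 10.2 CPM did not reach those of the other libraries (16.8 to 21.7 and 15.0 to 19.7). The difference did not pass the test across genes, with an adjusted p of 0.702 in edgeR (unadjusted p = 0.0530). Its paralog Lhx2, which the thalamus and cortical progenitors express, was higher per length in every library, by 4.57-fold, 12.2-fold and 6.20-fold in TPM. Lhx2 itself had 40.5, 45.8 and 49.4 CPM, so most of the spread in this ratio came with Lhx9.

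ZFHX3 is a large zinc finger and homeodomain protein of many differentiating and adult neurons, known also from the circadian clock nucleus. Zfhx3 (ENSMUSG00000038872.10; chromosome 8, 107942644 to 108961630) had 132, 139 and 161 CPM, the highest CPM of the members. Its edgeR adjusted p was 0.99999 (unadjusted p = 0.457), so the spread did not exceed that of genes of like abundance. Per length it stood at 34.4 ± 3.71 TPM, beside its paralogs Zfhx4 at 38.9 ± 0.331 TPM and Zfhx2 at 20.1 ± 3.50 TPM. The TPM of Zfhx3 in replicate 3 (38.6) overlapped the range of Zfhx4, so these paralogs were not set apart by their libraries.

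Amotl1, Synpo2, Plekhg1 and Prkcd encode cytoskeletal and signalling proteins. AMOTL1 is an angiomotin-like scaffold at cell junctions that binds the Hippo pathway effector YAP. Amotl1 (ENSMUSG00000013076.17; chromosome 9, 14541966 to 14645056) had 96.8, 105 and 93.7 CPM, the narrowest span of the 8 detected members at 1.12-fold. Its edgeR adjusted p was 0.99999 (unadjusted p = 0.809). Its paralogs were lower, with Amot at 6.67, 7.70 and 5.14 CPM and Amotl2 at 2.38, 1.12 and 3.16 CPM.

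SYNPO2, or myopodin, bundles actin and is best known from muscle. Synpo2 (ENSMUSG00000050315.14; chromosome 3, 123076519 to 123236149) had 80, 89 and 160 counts, equal to 6.35, 9.93 and 12.6 CPM. Replicate 3 was highest, by 1.99-fold over replicate 1, and the edgeR adjusted p was 0.99999 (unadjusted p = 0.274). Its paralog Synpo, a protein of dendritic spines, stood at 87.0 ± 7.11 TPM against 3.69 ± 1.22 TPM for Synpo2, and Synpo2l had at most 2 counts in a library.

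Mural and smooth muscle cells also express Synpo2, and 7 of their genes were read beside it. Of these, 5 reached 1 CPM in every library, with summed levels of 30.6, 35.5 and 26.4 CPM in replicates 1, 2 and 3. Rgs5, a pericyte gene, led at 19.1 ± 2.85 TPM, and Acta2 followed at 9.56 ± 1.26 TPM. The sum was lowest in replicate 3, where Synpo2 was highest, but of the single genes only Rgs5 and Vtn were lowest there. Acta2, Myh11, Pdgfrb and Kcnj8 were lowest in replicate 2, and Tagln in replicate 1, as Synpo2 was. Of 6 tested genes edgeR called 0, with 1 below an unadjusted p of 0.05, and limma called 0.

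PLEKHG1 is a guanine nucleotide exchange factor for small GTPases. Plekhg1 (ENSMUSG00000040624.17; chromosome 10, 3740364 to 3967303) had 85, 65 and 130 counts, equal to 6.75, 7.25 and 10.3 CPM. Replicate 3 was highest and the other libraries were close together; the edgeR adjusted p was 0.99999 (unadjusted p = 0.608). Of its 5 listed paralogs, Plekhg5 was highest at 51.4 ± 6.19 TPM, above the 4.64 ± 1.10 TPM of Plekhg1, and Plekhg6 had 0 counts.

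Endothelial cells express Plekhg1 as well, and 3 of 8 endothelial genes reached 1 CPM in every library, with summed levels of 15.7, 19.3 and 15.97 CPM. Itm2a led at 15.9 ± 1.65 TPM, followed by Slco1c1 at 5.89 ± 3.79 TPM. Cldn5, a defining tight junction gene, had 2 counts in replicate 1 and 0 in the other libraries. Of 7 tested endothelial genes edgeR called 0, with 1 below an unadjusted p of 0.05, and limma called 0. The part of endothelial RNA in the level of Plekhg1, and of mural RNA in that of Synpo2, was not tested.

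PRKCD, the delta isoform of protein kinase C, is a textbook marker of thalamic relay neurons and is also made in cells of the central amygdala. Prkcd (ENSMUSG00000021948.17; chromosome 14, 30595354 to 30626210) had 87, 60 and 124 counts, equal to 6.91, 6.69 and 9.80 CPM. Replicate 3 was highest, by 1.46-fold over replicate 2, and the edgeR adjusted p was 0.99999 (unadjusted p = 0.656). Among protein kinase C genes it was low. Prkcb was highest at 1487 ± 95.8 TPM and exceeded Prkcd by 214-fold per length (mean log2 ratio of Prkcd over Prkcb -7.74 ± 0.40). Of the 23 listed paralogs of all members, 16 reached 1 CPM in every library. In edgeR 0 of 18 tested paralogs varied, with 1 below an unadjusted p of 0.05, and limma called 0.

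Per length, the members were ordered Amotl1, Zfhx3, Tcf7l2, Lhx9, Prkcd, Plekhg1, Synpo2 and Lef1. Their mean levels were 49.0 ± 2.97, 34.4 ± 3.71, 11.6 ± 7.02, 7.82 ± 3.08, 7.05 ± 1.58, 4.64 ± 1.10, 3.69 ± 1.22 and 0.685 ± 0.310 TPM (SD, n = 3). Of the 7 neighbouring pairs, 4 had ranges over the libraries that did not overlap: Amotl1 over Zfhx3, Zfhx3 over Tcf7l2, Prkcd over Plekhg1, and Synpo2 over Lef1. Tcf7l2, Lhx9 and Prkcd were not set apart in neighbouring pairs, nor were Plekhg1 and Synpo2. In CPM, which does not account for length, Zfhx3 stood above Amotl1. No test was made of this order; with 3 libraries an exact two-sided sign-flip test cannot give a p below 0.25.

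The driver gene Slc17a6 (chromosome 7, 51622006 to 51671119) gives the scale, at 792, 672 and 847 TPM. It exceeded Amotl1 by 15.7-fold (log2 difference 3.97 ± 0.26, n = 3) and Zfhx3 by 22.4-fold (4.48 ± 0.16). Its excess over Tcf7l2 was 77.5-fold (6.28 ± 1.15), over Lhx9 105-fold (6.71 ± 0.51) and over Prkcd 111-fold (6.79 ± 0.21). Over Plekhg1 it was 168-fold (7.40 ± 0.26), over Synpo2 216-fold (7.76 ± 0.52) and over Lef1 1200-fold (10.23 ± 0.80). The log2 excess over Tcf7l2 was 5.68 without replicate 1 and 5.42 with the longest transcript as length, and that over Lef1 was 9.35 with this length and 9.37 with a pseudocount of 0.5 TPM. Against the level of 3 counts per library, Slc17a6 was 871-fold higher than Gbx2 and 1870-fold higher than Pou4f1 in the library where the fold was lowest. The Poisson intervals of a count of 0 reached above that level, so these folds are not lower bounds. For Gbx2, reads in the bases shared with the antisense gene may also not have been counted. All folds over the members compare abundances of different messages in the same RNA and do not measure a number of cells. Whether the transgene added reads to Slc17a6 was not tested.

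**Figure D4:**
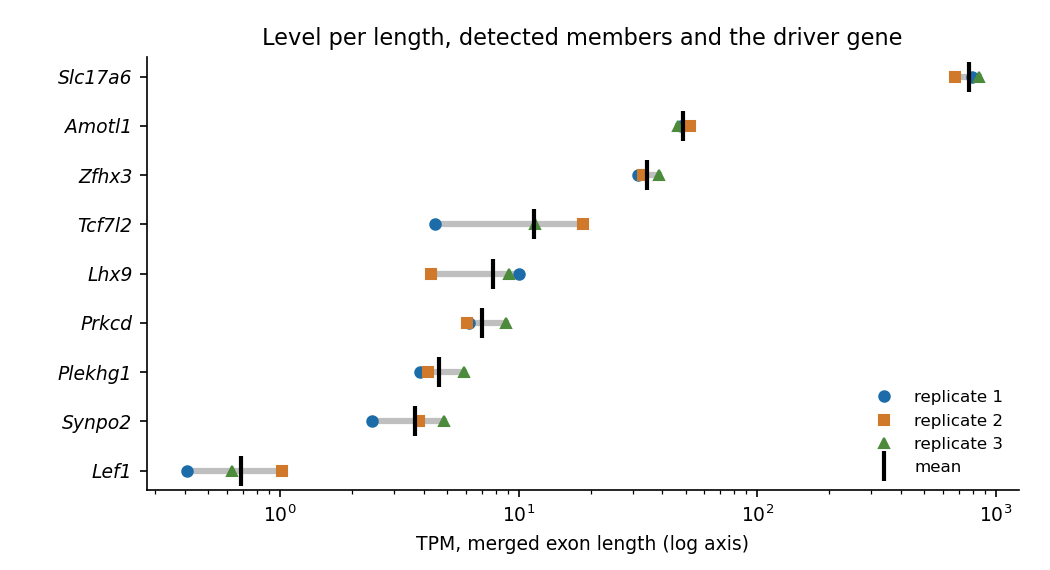
TPM (log axis) of the 8 detected members and of Slc17a6, with a symbol for each library, a grey bar for the range and a black tick for the mean. All 8 members lie below Slc17a6 in every library, from Amotl1 at 49.0 TPM to Lef1 at 0.685 TPM, and the ranges of Tcf7l2, Lhx9 and Prkcd overlap.

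Further thalamic and habenular genes were read to see whether the members' split into detected and absent genes was shared. Of 14 other thalamic genes, 13 reached 1 CPM in every library, and the median over all 14 was 43.0 TPM. Calb2, a calcium-binding protein gene, led at 186 ± 39.0 TPM, and Necab1 followed at 153 ± 15.4 TPM. Both are also expressed by cortical neurons, Calb2 in interneurons. Which other genes of the list cortical neurons express was not examined, so the count and the median are not specific to thalamic RNA. The lowest were Ramp3 at 7.17 ± 2.26 TPM, Slitrk6 at 6.53 ± 3.34 TPM and Tnnt1 at 3.56 ± 2.61 TPM. Tnnt1 was the gene that did not reach 1 CPM in every library. Of the 14, edgeR called 0 as varying, with 0 below an unadjusted p of 0.05, and limma called 0.

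Of 14 other habenular genes, 9 reached 1 CPM in every library, and the median over all 14 was 3.91 TPM. The tachykinin gene Tac1, also a gene of cortical and striatal cells, led at 47.2 ± 7.71 TPM, and the G protein subunit gene Gng8 followed at 26.9 ± 0.855 TPM. Gpr151, an orphan receptor gene that is highly selective for the habenula, had 0, 0 and 8 counts in replicates 1, 2 and 3. Also highest in replicate 3 were Tac1, Tac2, Gng8, Chrna3, Slc5a7, Htr5b and Slc18a3, the last with 0, 0 and 34 counts. Nwd2, Kctd8, Chrnb3, Chrnb4 and Chat were highest in replicate 2, and Chrna5 in replicate 1. Gpr151 and Slc18a3 were singled out after their values were seen. Apart from Tac1, which genes of the list are expressed by cells outside the habenula was not examined. The count, the median and the levels in replicate 3 are therefore not specific to habenular RNA. In edgeR 0 of 13 tested habenular genes varied, with 3 below an unadjusted p of 0.05, and limma called 0.

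The members' own median, with Gbx2 and Pou4f1 entered at 0, was 5.84 TPM over all 10 genes. It was 7.43 TPM over the 8 detected genes. The median over all symbols with a count and a length was 13.3 TPM, and that of the cortical projection neuron list was 137 TPM. Among 8 transcription factor genes of other subcortical regions where Slc17a6 is expressed, 3 reached 1 CPM in every library, with Fezf1 at 31.7 ± 11.8 TPM and Nkx2-1 at 8.78 ± 1.84 TPM. Foxa1, Lmx1a and Lmx1b of that list had 0 counts, and edgeR called 0 of the 3 genes tested, with 0 below an unadjusted p of 0.05 and 0 called by limma.

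**Figure D5:**
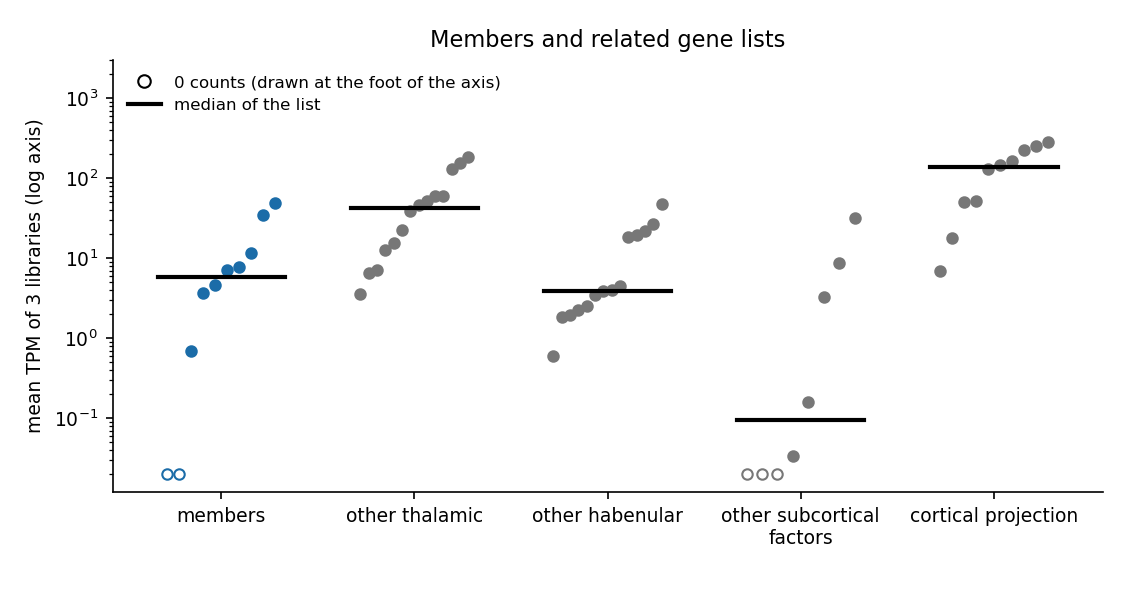
Mean TPM over the 3 libraries (log axis) of each gene of 5 lists, with the median of each list as a black line and genes with 0 counts as open circles at the foot of the axis. The members (median 5.84 TPM) lie below the other thalamic genes (43.0 TPM) and the cortical projection neuron genes (137 TPM) in their median, and 2 members have no counts.

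The genes whose pattern over the 3 libraries was most like that of Tcf7l2 were sought among 10526 others of at least 5 CPM on average, by the Euclidean distance of centred log2 values. The nearest were A430035B10Rik (2.06, 8.81 and 4.66 CPM in replicates 1, 2 and 3; distance 0.231) and Car12, a carbonic anhydrase gene (5.88, 21.3 and 12.1 CPM; 0.248). Ypel4 (7.15, 23.8 and 19.8 CPM; 0.290), the endothelin receptor gene Ednrb (2.86, 9.71 and 5.93 CPM; 0.313) and Irf3 (1.67, 7.81 and 6.64 CPM; 0.332) followed. None of these 5 was called as varying in edgeR, with adjusted p-values from 0.231 to 0.798. With 3 libraries many genes share such an order, so this is a description of the pattern.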

How the data were processed

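Per the submitters' processing notes, STAR 2.0.0e, HTSeq and mm10 were used, and their settings, the annotation and the use of strand were not stated. The deposited values are raw counts, 1 table of gene symbols per library. Lines that name no gene (27.8% ± 0.56 of counts) were left out. CPM used totals over named genes. TPM used merged exon lengths of GENCODE M21, matched by symbol (87.1% of symbols with a count); log2 values used a pseudocount of 0.5 CPM, and TPM ratios none. Intervals are exact Poisson intervals at 95%, and cover counting error only, since the reads carry no molecular identifiers.

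Variation between libraries was tested with edgeR 4.0.16 (intercept-only goodness of fit, TMM, trended dispersion, 2 degrees of freedom, at least 10 counts in a library, Benjamini-Hochberg over all genes tested) in R 4.3.3, and tested on simulated data. Alternatives used limma 3.58.1, DESeq2 1.42.0 size factors, other filters, dispersions, lengths and totals, and each replicate left out. Upstream windows came from RefSeq on GRCm38.p6. All members were named, with the 2 highest of each list by mean TPM, any list gene called as varying (a few of these genes are not reported), and the 5 nearest patterns of a called member; other names were chosen after their values were seen. The members and lists were chosen with earlier results of these data known.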

Additional observations from a re-analysis of the deposited data

How the results depend on the processing

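The count of 36 varying genes became 1097 with a common dispersion, 12 in limma and 18 at an adjusted p of 0.01, and ran from 16 to 21 with each replicate left out. Of the limma calls, 11 were among the 36. DESeq2 size factors, library totals and the other count minimums gave 26 to 48. The fits with a replicate left out had fewer degrees of freedom, and the cause of these shifts was not tested. Tcf7l2 kept its call in 5 of 10 alternatives. The other 7 tested members stayed uncalled in all 69 alternative values, with a lowest adjusted p of 0.649 in edgeR. Totals without Rn45s moved Amotl1 to 106 CPM. With the longest transcript as length, the log2 excess of Slc17a6 became 9.35 over Lef1, 5.42 over Tcf7l2, 6.21 over Prkcd and 6.15 over Lhx9, and a pseudocount of 0.5 TPM made it 9.37 over Lef1; without replicate 1 it was 5.68 over Tcf7l2. The number of members at 1 CPM was 8 without replicate 1 and at a minimum of 0.5 CPM, Lef1 being the addition. Without replicate 2 Lhx9 stood above Tcf7l2 per length, and without replicate 1 Prkcd stood above Lhx9. Depth limits Lef1, at 9 to 16 counts a library, and the members with 0 counts. With a common dispersion, which called 7.43% of all genes, calls were made for 3 of 13 habenular, 4 of 5 olfactory bulb, 2 of 7 endothelial, 1 of 8 oligodendrocyte precursor and 1 of 6 mural genes and 1 of 18 paralogs, and for 0 of the 8 members and of the remaining lists. No paired analysis was possible because all libraries form 1 group.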

Other observations

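Genes of the neighbouring striatum and olfactory bulb were also read. Which of them cortical neurons express was not examined, so their levels are not specific to RNA of these regions. Penk, which encodes enkephalin, was the highest of 7 striatal genes at 616 ± 160 TPM, followed by Ppp1r1b at 108 ± 25.4 TPM; every one of the 7 had at least 1 CPM in each library, and their summed level was 390, 538 and 625 CPM in replicates 1, 2 and 3. Of the 7, edgeR called 0 as varying, with 3 below an unadjusted p of 0.05, and limma called 0. Of 5 genes of olfactory bulb output neurons, 4 reached 1 CPM in every library, with a summed level of 170, 145 and 64.1 CPM. Trh led them at 104 ± 44.9 TPM. Cdhr1 followed at 88.4 ± 60.3 TPM and was the 1 gene of the list called as varying in edgeR (116, 95.9 and 17.3 CPM; adjusted p = 2.28e-15). All 5 were below an unadjusted p of 0.05 in edgeR, against 7.22% of all genes, and limma called 1 of them. The list was chosen with earlier results of these data known, so this count does not test the list. Trh was lowest in replicate 1 and highest in replicate 3, while the other 4 were highest in replicate 1 and lowest in replicate 3. The striatal sum was lowest in replicate 1, as Tcf7l2 was, and the olfactory bulb sum was lowest in replicate 3; their part in the variation of Tcf7l2 was not tested.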
